A study of Danio rerio with 6 samples.

Results

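The long arm of zebrafish chromosome 4 was taken as the genes on chromosome 4 whose first exon base lies at or beyond 28 Mb in build GRCz11. It held 1644 of the 32520 genes in the count tables, and the short arm of the same chromosome held 736. The compared animals were whole larvae at 5 days after fertilisation. The mutants carry allele pd1215 at pdcd7, a line labelled pdcd7/cx20, and gave 3 RNA libraries. Their wild-type siblings gave 3 further libraries, and all 6 are labelled batch 1. The labels give neither what cx20 stands for nor the lesion of the allele. They name 40 larvae and 3 replicates, without saying whether 40 is the number per library. Nothing says that the libraries came from separate clutches, so p-values measure the spread between these libraries, which may be technical. PDCD7 is known in humans as a protein of the minor spliceosome, which removes a rare class of introns.

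The long arm of chromosome 4 is known as the most unusual stretch of the zebrafish genome. It replicates late in S phase, is rich in heterochromatin, and is poor in genes conserved in other vertebrates. Large families of fish-specific C2H2 zinc finger genes and of NLR genes, whose proteins sense danger inside cells, lie there in many similar copies, together with repeated genes for small nuclear RNAs, 5S ribosomal RNA and the early embryonic microRNA miR-430. The fish zinc fingers are thought to silence transposable elements in the early embryo.

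Names sorted the members into groups. A zinc finger name, znf for nearly all, stood on 144 members, and 477 were RNA genes. A further 702 had only a code name such as si:dkey or zgc, 242 had no name, 11 were long non-coding RNAs and 66 had another gene name. Only 2 carried an NLR name. Most copies of the NLR family on this arm go by code names, so the family as a whole could not be followed, and the zinc finger group is likewise limited to named copies. The counting left out reads with several alignments, so the counts of near-identical copies are uncertain throughout.

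The libraries held between 75122088 and 87110177 counted read pairs. Levels are CPM, the counts of a gene relative to library size scaled by TMM, and 3 counts, the floor that a count of 0 allows, came to between 0.0334 and 0.0410 CPM. A gene is called where edgeR's quasi-likelihood F-test, two-sided and adjusted over all 24248 tested genes, gave an adjusted p under 0.05. The targeted gene, PDCD7 (ENSDARG00000038976, chromosome 7), was at 21.8, 19.6 and 20.5 CPM in mutants, against 14.8, 15.0 and 15.3 CPM in wild-type siblings. Its transcript was thus higher in mutants by 0.46 ± 0.05 on the log2 scale (SE, adjusted p = 7.92e-08), and a count over all exons does not check the lesion. Markers of several tissues moved with the genotype. The summed markers of proliferating cells came to 753 CPM in mutants and 528 CPM in wild-type siblings, those of neurons to 1843 and 2443 CPM, those of lens to 13.6 and 322 CPM, and those of liver to 2055 and 3284 CPM. In whole larvae, fewer cells of a type and less RNA per cell cannot be told apart, and the part that tissue make-up plays in the results below was not tested.

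Under 50% of long arm genes gave enough reads for a test, and among those tested higher calls outnumbered lower calls in mutants. Of the 1644 members, 553 had no count in any of the 6 libraries, 453 of them RNA genes, and 748 (45.5%) passed the filter on low counts. On the short arm 609 of 736 (82.7%) passed. Across the 24 other chromosomes the share ranged from 69.1% to 81.6%. The median tested member stood at 0.825 CPM, or 0.348 CPM per kb of exon. The median short arm gene stood at 14.1 CPM, or 5.51 CPM per kb.

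Of the 748 tested members, 194 were called higher and 92 lower in mutants, which is 38.2% of those tested. Over all tested genes, 68.9% were called, 34.7% higher and 34.2% lower. On the short arm 214 were called higher and 210 lower, or 69.6% of those tested. Higher calls made up 67.8% of the calls on the long arm and 50.5% on the short arm, and between 44.6% and 54.9% on the other chromosomes. The median log2 fold change was 0.14 on the long arm (quartiles -0.16 and 0.45), 0.02 on the short arm and 0.01 over all tested genes. With a stricter filter, 1 CPM in 3 libraries, the long arm median was 0.0598, with 108 called higher and 69 lower. A change of at least 1.5-fold was called for 111 members higher and 47 lower, beside 10.7% of all tested genes higher and 11.1% lower. The 3 libraries of each genotype did not overlap for 225 of the 748 members that were higher and 103 that were lower. Over all 24248 tested genes these counts were 8823 and 8669, or 72.1% in either direction. These counts describe the members that passed the filter. Of these, 11 reached its cutoff of 0.125 CPM in mutants alone and 0 in wild-type siblings alone, beside 197 and 98 of all 24248 tested genes. Of the 11, 8 were among the 194 called higher. Over all genes, 171 of the 197 were called higher and 87 of the 98 lower. Such genes had to lean to 1 side, so their direction is not a result. The difference between the arms was not given a test of its own.

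Summed over all 1644 members, tested or not, the long arm took 2681, 2724 and 2741 CPM in the mutant libraries, against 2456, 2431 and 2466 CPM in the wild-type libraries. The genotypes did not overlap, and the means were 2716 ± 30.9 and 2451 ± 18.2 CPM (SD, n = 3 each), or 1.11-fold. The short arm ran the other way, with 19142 ± 119 CPM in mutants and 22296 ± 159 CPM in wild-type siblings, or 0.859-fold. Sums on this scale were lower in mutants for the genome as well. They stood at 0.951-fold over all genes and at 0.953-fold over genes off chromosome 4. The whole long arm thus took a small part of each library, and the 2 last windows of the arm, beyond 70 Mb, held 2001 CPM of it in mutants and 1801 CPM in wild-type siblings. A single unnamed gene there, ENSDARG00000115978, held 355 CPM in mutants and 275 CPM in wild-type siblings.

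Low levels bear on these counts, so genes were also set side by side at matched levels. Between 0.5 and 1 CPM, 22.8% of the long arm genes were called higher, beside 22.2% of the genes off chromosome 4. In the same range 9.26% were called lower, beside 25.5%. Between 1 and 2 CPM the shares called higher were 23.0% and 24.9%, and those called lower 19.0% and 28.7%. In both ranges, then, higher calls were about as frequent on the arm as off the chromosome, and lower calls were less frequent by count. Between 5 and 10 CPM both directions were called less often on the arm, with 32.1% higher beside 40.3% and 19.6% lower beside 33.7%. At 10 CPM or more, only 37 members were tested, and 23 of them (62.2%) were higher, beside 38.7% off the chromosome, and 8 (21.6%) lower, beside 40.6%. The median biological coefficient of variation at 0.5 to 1 CPM was 9.07% on the long arm, 8.45% on the short arm and 8.83% off the chromosome.

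**Figure D1:**
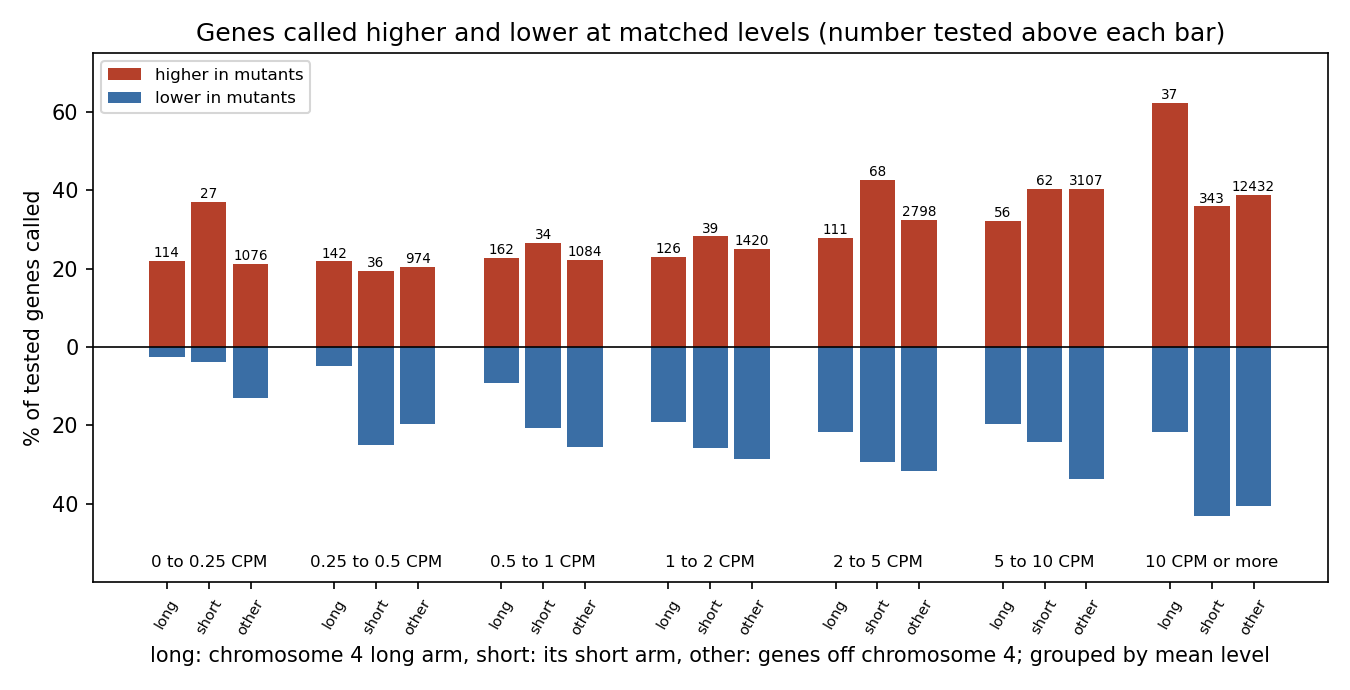
Share of tested genes called higher (above 0) and lower (below 0) in mutants, in percent, for genes grouped by mean CPM over the 6 libraries; the number above each bar is the number tested. Bars stand for the chromosome 4 long arm, its short arm and the genes off chromosome 4, and at 0.5 to 1 CPM the lower share is 9.26% on the long arm beside 25.5% off the chromosome.

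Almost no zinc finger gene of the arm was called lower in mutants. These genes encode proteins with arrays of C2H2 fingers that bind DNA, and no copy on this arm was a single exon block. Of the 144 with a zinc finger name, 1 had no count at all and 103 passed the filter. Of those, 41 were higher in mutants and 1 was lower, with a median log2 fold change of 0.39, and 91 of the 103 estimates were above 0. The 41 were 39.8% of those tested, beside 34.7% of all tested genes, and the 1 was 0.971%, beside 34.2%. A rise of at least 1.5-fold was called for 24 of the 103 and such a fall for 0, beside 10.7% of all tested genes higher and 11.1% lower. DESeq2 called 24 higher and 1 lower, beside 7593 higher and 7796 lower over all genes. The levels were low, with a median of 0.569 CPM and a highest mean of 6.70 CPM. Summed, the 144 genes took 113, 106 and 112 CPM in mutants, against 90.3, 92.2 and 93.2 CPM in wild-type siblings. The genotypes did not overlap, and the means were 111 ± 3.64 and 91.9 ± 1.44 CPM (SD, n = 3 each), or 1.20-fold.

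The zinc finger with the smallest p was znf1063 (ENSDARG00000101245, chr4:48628562-48636879, minus strand). It was at 1.40, 1.45 and 1.45 CPM in mutants, against 0.410, 0.615 and 0.582 CPM in wild-type siblings, a log2 fold change of 1.41 ± 0.17 (SE, adjusted p = 5.95e-07). Every mutant library was above every wild-type library. znf1060 (chr4:42078825-42091242, plus strand) was at 1.92, 1.72 and 1.85 CPM in mutants, against 0.998, 1.12 and 1.02 CPM in wild-type siblings, and znf1025 (chr4:69510337-69514024, plus strand) at 0.876, 0.842 and 0.945 CPM, against 0.356, 0.474 and 0.455 CPM. Their log2 fold changes were 0.80 ± 0.12 and 1.05 ± 0.19, and neither overlapped between the genotypes. These 3 genes lie far apart on the arm and are not neighbours of each other.

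The largest zinc finger change was that of znf1109 (chr4, start 60001731). It was at 0.580, 0.256 and 0.245 CPM in mutants, against 0.082, 0.103 and 0.051 CPM in wild-type siblings, a log2 fold change of 2.16 ± 0.45 at few counts. This gene and znf979 reached the filter through the mutant libraries alone, so they had to differ. Mutant replicate 1 stood well above the other mutant libraries. Somewhat better counted members moved less: znf1112 was at 2.22, 2.26 and 1.81 CPM in mutants, against 1.35, 1.28 and 1.253 CPM in wild-type siblings, and its log2 fold change was 0.69 ± 0.12. The 1 zinc finger called lower was the best counted of those called, znf977 (chr4:39055027-39069529, plus strand). It was at 6.01, 5.10 and 6.42 CPM in mutants, against 7.30, 7.88 and 7.48 CPM in wild-type siblings, a log2 fold change of -0.37 ± 0.08 (SE, edgeR adjusted p = 0.00043).

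**Figure D2:**
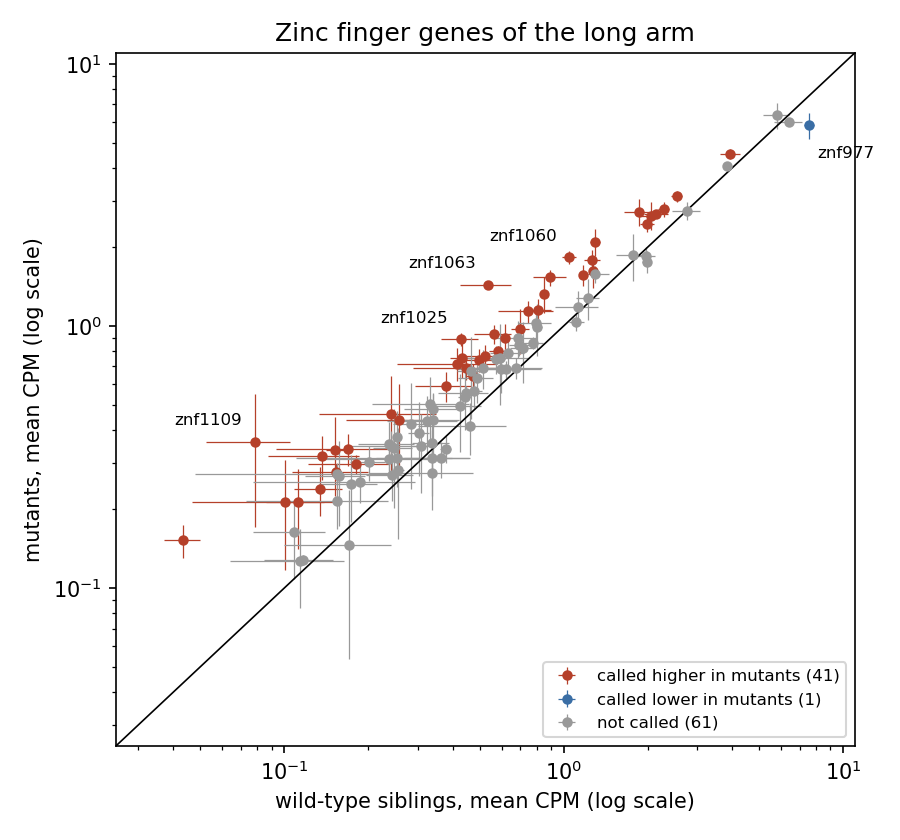
Mean CPM in mutants (vertical axis) against mean CPM in wild-type siblings (horizontal axis), both on log scales, for the 103 tested zinc finger genes of the long arm; bars are SDs over 3 libraries and the line marks equal levels. The 41 genes called higher lie above the line, and znf977 alone was called lower.

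Zinc finger genes elsewhere in the genome gave another picture. Of 227 genes off the arm with a zinc finger name, mostly znf or zbtb, 223 were tested, with a median log2 fold change of -0.002. Of those, 64 were higher in mutants (28.7%, beside 34.7% of all genes) and 52 lower (23.3%, beside 34.2%). They were better counted, with a median of 9.55 CPM, so the groups were also compared between 0.5 and 5 CPM. Levels still differed within that range, so it does not match them. The median was 0.911 CPM for zinc finger members of the arm and 2.53 CPM for zinc fingers off it. It was 1.24 CPM for the other members of the arm and 2.11 CPM for genes off chromosome 4. In this range 28 of 53 zinc finger members of the arm were called higher (52.8%) and 0 lower, with a median log2 fold change of 0.37. Off the arm 8 of 77 were called higher (10.4%) and 15 lower (19.5%), with a median of -0.05. The other members of the arm in this range numbered 346, of which 69 were higher (19.9%) and 63 lower (18.2%), with a median of 0.02. Of the 5302 genes off chromosome 4 in this range, 28.4% were higher and 29.6% lower, with a median of -0.01. Among all 15 other fits, between 17 and 34 of the zinc finger members in this range were called higher and 0 lower, and DESeq2 called 18 higher. With library size as the only scaling the count off the arm turned to 13 higher and 9 lower. Without the limit on level, 645 other members of the arm were tested, with a median of 0.10. Of those, 153 were higher (23.7%, beside 34.7% of all genes) and 91 lower (14.1%, beside 34.2%). The lean towards higher calls was thus not confined to zinc finger names. No test was made of the difference between these groups.

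The 2 members with an NLR name did not pass the test. nlrc3l2 was at 0.747, 0.610 and 0.556 CPM in mutants, against 0.615, 0.487 and 0.569 CPM in wild-type siblings, a log2 fold change of 0.19 ± 0.20 (SE, adjusted p = 0.406). nlrp12l2 was at 0.399, 0.427 and 0.412 CPM in mutants, against 0.766, 0.538 and 0.430 CPM in wild-type siblings, a log2 fold change of -0.48 ± 0.23 (adjusted p = 0.0784). For the second gene each mutant library was below each wild-type library, but wild-type replicate 3 nearly reached the mutants. Without that library the gene was called lower. Off the arm 18 genes with an NLR name were tested. Of these, 3 were higher (16.7%, beside 34.7% of all genes) and 5 lower (27.8%, beside 34.2%).

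Genes known to act with NLR proteins were listed as well, among them the inflammasome adaptor, inflammatory caspases, gasdermins, cytokines and NF-kB subunits. The list also holds NLR genes from off the arm, NOD2 among them, which the off-arm count above includes too. Of 24 found, 21 were tested, 9 were higher (42.9%, beside 34.7% of all genes) and 1 lower (4.76%, beside 34.2%), and the median was 0.23 beside 0.01. The inflammatory caspase caspb averaged 42.7 CPM in mutants and 25.7 CPM in wild-type siblings (log2 0.73 ± 0.05), and NOD2, a sensor of bacterial wall fragments, 10.7 and 7.24 CPM (0.56 ± 0.06). The NF-kB subunit nfkb2 averaged 36.3 CPM in mutants and 29.6 CPM in wild-type siblings, and the adaptor pycard 24.3 and 19.7 CPM. GSDME, which encodes a pore-forming gasdermin, was the 1 called lower, with 9.17 CPM in mutants and 14.5 CPM in wild-type siblings. The summed leukocyte markers moved the other way, at 76.1 CPM in mutants and 94.4 CPM in wild-type siblings. Of 15 tested, 6 were lower (40%, beside 34.2%), 1 higher (6.67%, beside 34.7%) and 8 not called. The 1 called higher was a gene named MPEG1, at 18.9 CPM in mutants and 13.9 CPM in wild-type siblings.

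The RNA genes were almost unread. Of 477, 453 had no count in any library and 2 passed the filter. They included 244 genes named U6, 148 named U1, 26 for 5S ribosomal RNA, 3 for 5.8S ribosomal RNA and 55 microRNA genes. Of the microRNA genes 47 were copies of mir-430, which clears maternal RNA in the early embryo, and each of these was at 0 in all libraries. The kit selects polyadenylated RNA and repeated copies lose reads, so a count of 0 here limits reads, not transcription.

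Of the 2 that passed, si:dkey-220a11.5 was not called and the other was a gene named U1, after the small nuclear RNA that marks the start of introns for the major spliceosome (ENSDARG00000105282, chr4:42661194-42661339, plus strand). It had 47, 22 and 37 counts in mutants, against 0, 1 and 1 counts in wild-type siblings, or 0.605, 0.268 and 0.412 CPM against 0, 0.0128 and 0.0127 CPM. Over pooled libraries the ratio was 48.9, with an exact 95% counting interval between 13.2 and 409 (Clopper-Pearson, counting error only). Pooling leaves out the spread between the libraries of a group. The gene reached the filter through the mutant libraries alone, so it had to differ. For that reason the interval is not a test of a difference, and no p is given. A second U1 gene, ENSDARG00000101401, had 8, 3 and 6 counts in mutants and 0 in each wild-type library. A U6 gene, ENSDARG00000116594, had 5, 2 and 3 counts in mutants and 0 in each wild-type library. Both were under the filter and had no test, and the other U1 and U6 genes held at most 4 counts in any library.

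The counts of calls differed along the arm. Between 28 and 70 Mb lay 1343 members, of which 506 were tested (37.7%), 136 higher (26.9%) and 39 lower (7.71%), with a median of 0.22. From 70 Mb to the end lay 301, of which 242 were tested (80.4%), 58 higher (24.0%) and 53 lower (21.9%), with a median of -0.0004. Over all tested genes, 34.7% were higher and 34.2% lower. Higher calls were thus below that share in both stretches, and lower calls were furthest below it before 70 Mb. Higher calls outnumbered lower calls in each of the 9 windows before 70 Mb. Only in the window from 28 to 30 Mb was the share called higher, 51.7%, above that of all genes. From 55 to 60 Mb higher and lower calls stood at 18 and 4 (26.5% and 5.88% of those tested). From 40 to 45 Mb they stood at 25 and 7 (32.9% and 9.21%). In the last 2 windows they stood at 33 and 29 (25.4% and 22.3%) and at 25 and 24 (22.3% and 21.4%). Without zinc fingers 407 genes were tested between 28 and 70 Mb, 95 higher (23.3%) and 38 lower (9.34%), with a median of 0.17. Levels differed too, with a median of 0.577 CPM before 70 Mb and 2.15 CPM beyond it, so position and level cannot be told apart here.

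**Figure D3:**
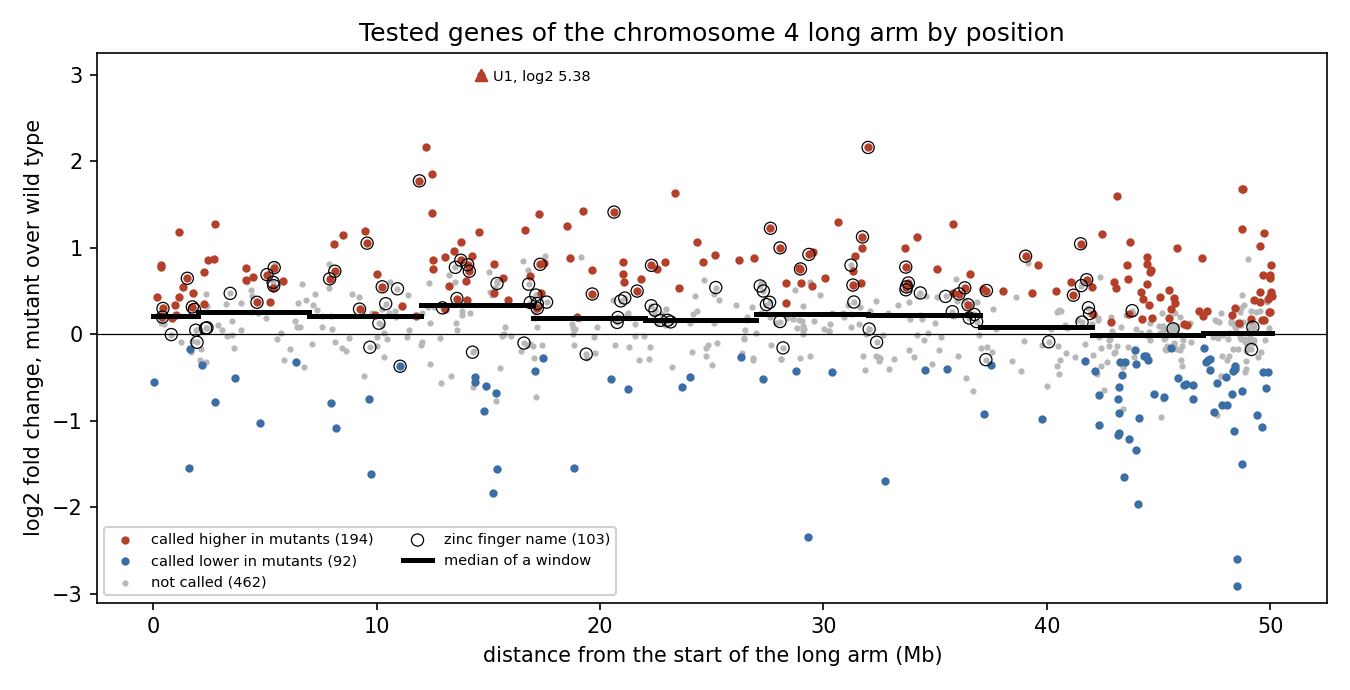
Log2 fold change (mutant over wild type, vertical axis) of the 748 tested members by distance from the start of the long arm in Mb (horizontal axis); red and blue points were called higher and lower, rings mark zinc finger names and black bars the median of each window. Window medians lie above 0 in the 9 windows before 70 Mb and at about 0 in the last 2, and the triangle stands for the U1 gene, whose value lies off the scale.

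Neighbouring members tended to be called in the same direction. Of 137 pairs of adjacent tested members that were both called, 96 (70.1%) went the same way, where the shares of higher and lower calls alone would give 56.4%. The share was 51.0% of 298 pairs on the short arm and 54.2% of 11261 pairs off chromosome 4. The 56.4% takes 1 share of higher calls for the whole arm, but that share was 77.7% before 70 Mb and 52.3% beyond it. These values are descriptions without a test, and the counts of near-identical copies are uncertain.

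The start of the arm carries a short run of conserved genes. Nearest inside the boundary, GRAMD4 (chr4:28062473-28161198, minus strand) was at 10.6, 12.4 and 13.3 CPM in mutants, against 18.4, 17.6 and 17.1 CPM in wild-type siblings (log2 -0.55 ± 0.07). A 5S ribosomal RNA gene within it had no counts. Nearest outside, CERK, which encodes ceramide kinase, was at 12.4, 12.3 and 13.2 CPM, against 15.2, 16.3 and 16.2 CPM (log2 -0.33 ± 0.05). TBC1D22A averaged 14.5 ± 0.243 CPM in mutants and 13.8 ± 0.611 CPM in wild-type siblings, and TAFA5 13.6 ± 0.212 and 14.8 ± 0.258 CPM.

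Further in, CELSR1 (chr4:28190013-28335184, minus strand), a cadherin of planar cell polarity, was at 79.7, 81.4 and 79.3 CPM in mutants, against 59.4, 59.0 and 60.5 CPM in wild-type siblings. Its log2 fold change was 0.43 ± 0.03 (SE, adjusted p = 7.06e-10), with no overlap. Its neighbour TRMU, an enzyme that modifies mitochondrial tRNA, was at 10.4, 11.3 and 11.6 CPM in mutants, against 6.49, 6.53 and 6.36 CPM in wild-type siblings (0.78 ± 0.06). Next to it srr, named for serine racemase, was at 9.23, 8.66 and 8.25 CPM in mutants, against 4.95, 4.82 and 5.17 CPM in wild-type siblings (0.81 ± 0.07). These genes and ALG10, a glycosyltransferase of protein N-glycosylation (0.22 ± 0.06), were called higher, and GRAMD4 beside them lower.

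In the middle of the arm lies crestin (chr4:47257854-47262290, plus strand), a zebrafish transcript used as a marker of the neural crest. It was at 0.914, 1.09 and 1.08 CPM in mutants, against 0.465, 0.346 and 0.342 CPM in wild-type siblings. The log2 fold change was 1.42 ± 0.19 (SE, adjusted p = 3.35e-06), and no mutant library overlapped a wild-type library. The interleukin 17 receptor gene il17ra1b did not pass the test, with 0.975 CPM in mutants and 0.872 CPM in wild-type siblings.

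Beyond 70 Mb lie most of the members with conserved names and high levels. NUP50 (chr4:74928675-74972270, plus strand), a nucleoporin of the nuclear import machinery, was at 67.3, 63.4 and 62.1 CPM in mutants, against 34.6, 34.8 and 34.8 CPM in wild-type siblings. Its log2 fold change of 0.89 ± 0.04 had the smallest adjusted p among the rises, 2.9e-13. ckap4 (chr4:77975221-77979432, minus strand), which encodes a membrane protein of the endoplasmic reticulum, was at 75.7, 71.0 and 72.2 CPM, against 47.5, 43.2 and 48.5 CPM (0.65 ± 0.04). In both genes the genotypes were well separated. The adjacent gene ikbip averaged 22.8 CPM in mutants and 14.1 CPM in wild-type siblings (0.69 ± 0.06), and terfa, a telomere-binding protein gene that spans ckap4 on the other strand, 27.5 and 23.0 CPM (0.25 ± 0.04). The models of ikbip and terfa overlap on the same strand, so their levels are uncertain.

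The chaperonin subunit CCT2, part of the complex that folds actin and tubulin, stands on 2 gene models at the very end of the arm. The model with the larger span, CCT2 (ENSDARG00000104674), was at 168, 153 and 154 CPM in mutants, against 111, 113 and 114 CPM in wild-type siblings (0.49 ± 0.04). The other, cct2 (ENSDARG00000087206), was at 56.2, 52.4 and 50.8 CPM, against 40.2, 39.2 and 37.6 CPM (0.45 ± 0.04). Both models moved together, and how reads divide between them is uncertain. The model cct2 also overlaps si:dkey-238k10.2 on its own strand. Between the 2 models nots, which had 1.16 CPM in mutants and 0.662 CPM in wild-type siblings, was called higher as well.

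A run of 3 code-named or unnamed neighbours beyond 70 Mb was also among the clearest rises. zmp:0000000737 (chr4:72463842-72476526, minus strand) was at 72.3, 78.6 and 77.2 CPM in mutants, against 44.3, 44.6 and 41.1 CPM in wild-type siblings (0.81 ± 0.04). ENSDARG00000105749 averaged 25.6 ± 1.75 CPM in mutants and 17.1 ± 0.636 CPM in wild-type siblings, and ENSDARG00000105829 averaged 41.4 ± 3.05 and 22.2 ± 1.34 CPM. The flanking genes si:ch211-161m3.6 and zgc:175107 were called lower, with log2 fold changes of -0.25 ± 0.08 and -0.30 ± 0.08. The run of rises was thus limited to these 3 adjacent genes on the same strand.

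The clearest fall of the arm lay at this end. slco1d1 (chr4:77389668-77432218, minus strand), an organic anion transporter, was at 56.8, 55.7 and 55.3 CPM in mutants, against 104, 105 and 112 CPM in wild-type siblings. Its log2 fold change of -0.94 ± 0.03 had the smallest adjusted p of all members, 7.04e-14. It dominates its family: summed, the 6 slco1 genes took 57.3 ± 0.809 CPM in mutants and 108 ± 4.16 CPM in wild-type siblings (SD, n = 3 each). slco1e1 did not pass the test (0.25 ± 0.15), and slco1f4, at 0.148 CPM in mutants and 0.290 CPM in wild-type siblings, was called lower (-0.97 ± 0.36) but not by DESeq2 or without 1 of 3 libraries, mutant replicate 1, mutant replicate 3 or wild-type replicate 2.

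Other falls with names were spread over the same end. myrfl, related to the myelin regulatory factor, was at 11.5, 11.8 and 10.8 CPM in mutants, against 18.9, 17.6 and 18.4 CPM in wild-type siblings (-0.69 ± 0.05). KCNA1, a voltage-gated potassium channel of neurons, was at 5.81, 6.20 and 5.53 CPM, against 10.3, 10.04 and 9.13 CPM (-0.75 ± 0.07). The phosphatase PTPRR averaged 16.6 ± 0.578 CPM in mutants and 24.8 ± 0.794 CPM in wild-type siblings, and the copine CPNE8, a calcium-dependent membrane-binding protein, 25.7 ± 1.11 and 34.1 ± 0.599 CPM. PARP11, an ADP-ribosyltransferase, averaged 0.758 ± 0.211 CPM in mutants and 1.93 ± 0.159 CPM in wild-type siblings (-1.34 ± 0.17), while PYROXD1 on the other strand of the same stretch did not pass the test. The immune genes gbp4, a guanylate-binding GTPase, and ftr64, a finTRIM, were lower by less, at -0.43 ± 0.09 and -0.35 ± 0.11. None of these falls overlapped between the genotypes. Of the 8 neuron markers, 6 were called lower (75%, beside 34.2% of all genes), 1 higher (12.5%, beside 34.7%) and 1 not called. What part neurons play in these falls was not tested.

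The ms4a17a genes, a row of 14 genes of the membrane-spanning 4A family on the plus strand, held the largest falls of the arm and also some of its rises. Members of this family encode small tetraspan membrane proteins. ms4a17a.17 (chr4:76492691-76507576) was at 1.37, 1.32 and 1.29 CPM in mutants, against 8.94, 11.6 and 9.35 CPM in wild-type siblings. That was 7.52-fold lower by group means, with a log2 fold change of -2.91 ± 0.11 (SE, adjusted p = 1.37e-12). Next to it ms4a17a.16 (chr4:76509294-76517613) was at 0.708, 0.561 and 0.523 CPM, against 3.72, 3.30 and 3.81 CPM (-2.60 ± 0.13). Both genes were far below wild type in each mutant library.

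The rest of the row did not follow. The best counted member, ms4a17a.11, was at 17.6, 21.2 and 20.9 CPM in mutants, against 24.1, 19.4 and 23.5 CPM in wild-type siblings, and the libraries overlapped (-0.17 ± 0.11, edgeR adjusted p = 0.255). ms4a17a.7 averaged 8.84 CPM in mutants and 9.18 CPM in wild-type siblings and did not pass the test. At the far end ms4a17a.4 averaged 0.547 and 0.169 CPM (1.68 ± 0.26), and ms4a17a.12 averaged 0.777 and 0.334 CPM (1.22 ± 0.27), both higher in mutants. These 2 models overlap on the same strand, so their levels are uncertain. ms4a17a.6 (-1.50 ± 0.31) and ms4a17a.10 (-0.65 ± 0.20) were lower. The call for ms4a17a.9 (0.13 ± 0.05, adjusted p = 0.0409) was lost in 7 of 15 other fits, DESeq2 among them. In all, 3 of the 14 were called higher (21.4%, beside 34.7% of all genes) and 4 lower (28.6%, beside 34.2%). The summed level was 49.3 ± 2.68 CPM in mutants and 61.9 ± 2.28 CPM in wild-type siblings.

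**Figure D4:**
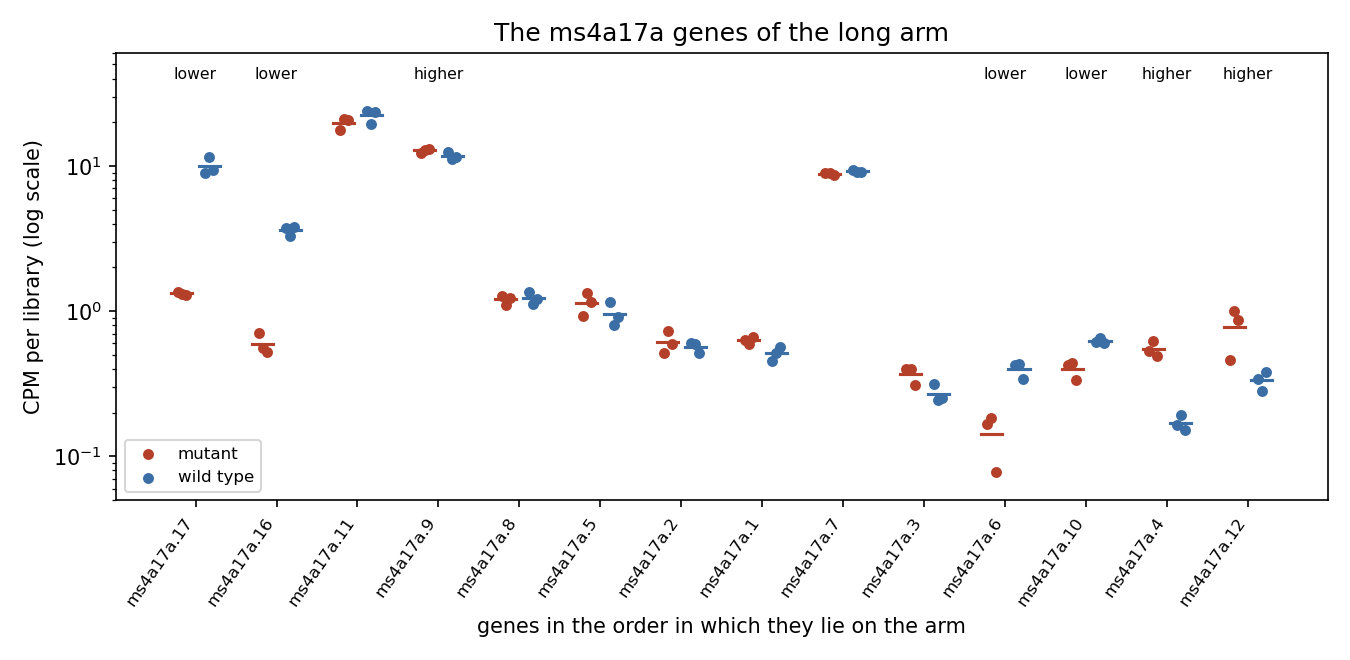
CPM in each library (log scale) of the 14 ms4a17a genes in the order in which they lie on the arm, mutants in red and wild-type siblings in blue, with a bar at each group mean; words above mark the called genes. ms4a17a.17 and ms4a17a.16 at the left are lower in all 3 mutant libraries, and ms4a17a.4 and ms4a17a.12 at the right are higher.

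Just past that row lies the largest rise by the rule for named genes, si:ch73-56d11.5 (ENSDARG00000093546, chr4:76775837-76785895, plus strand). It was at 4.11, 5.91 and 5.45 CPM in mutants, against 1.46, 1.71 and 1.67 CPM in wild-type siblings, a log2 fold change of 1.68 ± 0.13 (SE, adjusted p = 9.71e-08). si:dkey-193i10.3 (chr4:71154171-71155563, plus strand) was at 2.49, 2.65 and 2.75 CPM, against 0.861, 0.821 and 0.924 CPM (1.596 ± 0.12). What these genes encode is not given by the names used here. The other large rises by rule averaged at most 2.23 CPM in mutants: ENSDARG00000104407 and ENSDARG00000097728 without names (1.151 ± 0.12 and 1.19 ± 0.19), si:cabz01032454.3 (1.00 ± 0.18), si:dkey-26i24.1 (0.99 ± 0.16), zgc:174703 (0.95 ± 0.16) and si:ch211-241n15.3 (0.90 ± 0.15).

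The code-named members were called less often than all tested genes in both directions. Of 702, 452 were tested, with a median of 0.06. Of those, 87 were higher (19.2%, beside 34.7% of all genes) and 65 lower (14.4%, beside 34.2%). The sum of the 702 was 948 ± 24.6 CPM in mutants and 931 ± 10.1 CPM in wild-type siblings, a difference within the spread of the mutants. Among the 32 with a zgc name, 28 were tested, with a median of 0.32. Of these, 12 were higher (42.9%, beside 34.7%) and 2 lower (7.14%, beside 34.2%). zgc:173709, for example, was at 3.95, 3.67 and 4.12 CPM in mutants, against 2.63, 2.38 and 2.56 CPM in wild-type siblings (0.64 ± 0.09). In the other direction zgc:123107 averaged 0.278 CPM in mutants and 0.609 CPM in wild-type siblings (-1.12 ± 0.27). The zgc names were looked at after the values had been seen.

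Among code-named falls, si:dkey-16p6.1 (chr4:43225728-43260960, plus strand) was at 1.84, 1.83 and 1.84 CPM in mutants, against 6.26, 6.74 and 6.69 CPM in wild-type siblings (-1.84 ± 0.08). si:dkey-26m3.3 (chr4:46842926-47096170, minus strand) was at 4.04, 3.77 and 4.30 CPM, against 12.5, 10.8 and 12.2 CPM (-1.55 ± 0.07), and si:dkey-27n6.10 averaged 10.8 ± 0.181 CPM in mutants and 24.95 ± 2.6 CPM in wild-type siblings (-1.21 ± 0.07). All 3 models span or overlap other genes on the same strand, so reads in shared exons were not assigned to them and their levels are uncertain. si:dkey-254e13.6, si:ch211-76m11.3 and si:ch211-214c20.1 fell by 1.70, 1.65 and 1.54 on the log2 scale, with no overlap between the genotypes. si:ch211-22k7.1 was at 0.631, 0.879 and 0.678 CPM in mutants, against 5.36, 1.17 and 4.64 CPM in wild-type siblings. Wild-type replicate 2 stood far below the other wild-type libraries, and the call (-2.34 ± 0.73, adjusted p = 0.0457) was lost under most alternatives.

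Members with no name were seldom called lower, and their sum was higher in mutants. Of 242, 126 were tested, 39 were higher (31.0%, beside 34.7% of all genes) and 8 lower (6.35%, beside 34.2%), with a median of 0.26, and the sum was 672 ± 30.1 CPM in mutants and 523 ± 4.56 CPM in wild-type siblings (SD, n = 3 each). Most of that sum was 1 gene, ENSDARG00000115978 (chr4:77561226-77561679, minus strand), which also had the highest level per length of the arm, 729 CPM per kb. It was at 329, 372 and 364 CPM in mutants, against 271, 282 and 272 CPM in wild-type siblings, a log2 fold change of 0.37 ± 0.04 (SE, adjusted p = 1.02e-06). The second highest, ENSDARG00000115988 (chr4:77557112-77557279, minus strand), was at 58.9, 66.6 and 61.2 CPM, against 38.0, 46.6 and 48.3 CPM (0.49 ± 0.11, adjusted p = 0.0134). A gene for 5.8S ribosomal RNA lies between them on the same strand. What kind of RNA the reads of these 2 unnamed genes stem from was not tested. Both enter the sums of this group and of the whole arm. The first averaged 355 CPM in mutants and 275 CPM in wild-type siblings, and the second 62.2 and 44.3 CPM. Next per length came cct2 and CCT2, at 140 and 136 CPM per kb, and then RAB21, a small GTPase of endosomes, at 32.9 CPM per kb. RAB21 averaged 40.0 ± 0.812 CPM in mutants and 42.0 ± 1.102 CPM in wild-type siblings and did not pass the test (-0.07 ± 0.03, adjusted p = 0.0731).

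Among the unnamed falls, ENSDARG00000105976 averaged 0.162 CPM in mutants and 0.640 CPM in wild-type siblings (-1.96 ± 0.29). ENSDARG00000099152 averaged 0.728 and 1.54 CPM (-1.08 ± 0.15), and ENSDARG00000114317, which overlaps a gene on its own strand, 0.806 and 1.29 CPM (-0.67 ± 0.15). These were the 3 falls of the group with the smallest p.

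**Figure D5:**
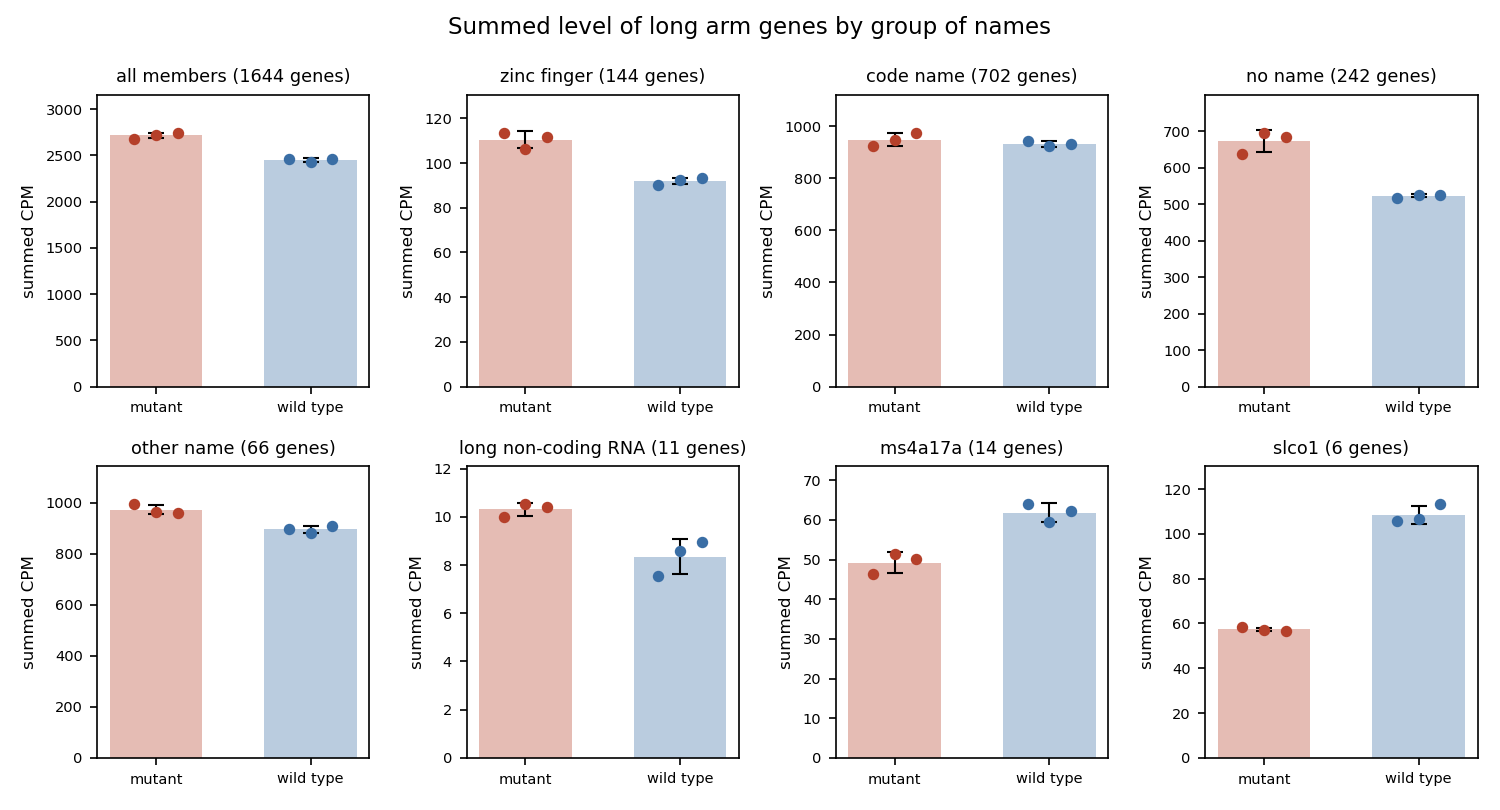
Summed CPM per library (points), group mean (bars) and SD (lines, n = 3) for all members and for groups of names, mutants in red and wild-type siblings in blue; the ms4a17a and slco1 genes are part of the other names. The zinc finger sums are 106 to 113 CPM in mutants and 90.3 to 93.2 CPM in wild-type siblings, and the slco1 sums are the other way round.

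Of the 11 long non-coding RNAs, only 5 were tested. Of those, 4 were called higher in mutants (80%, beside 34.7% of all genes) and 0 lower (0%, beside 34.2%). Among the 4, si:dkey-22h13.5 and si:dkey-22h13.6 reached the filter through the mutant libraries alone and had to differ. The share of 80% is therefore not a result about this group. si:dkey-22h13.5 was at 0.309, 0.268 and 0.289 CPM in mutants, against 0.123, 0.103 and 0.101 CPM in wild-type siblings (1.40 ± 0.32), and si:dkey-22h13.6 close by averaged 0.209 and 0.0562 CPM (1.86 ± 0.43). Both came to few reads. si:dkeyp-80d11.1 averaged 2.11 ± 0.0877 CPM in mutants and 1.45 ± 0.318 CPM in wild-type siblings (0.54 ± 0.14, edgeR adjusted p = 0.002).

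Genes known to act on heterochromatin and DNA methylation, none of which was chosen for its place on the arm, were listed beside the members. Most build or copy these marks, but the list also holds the histone demethylases kdm4aa, kdm4ab, KDM4B and kdm4c, so its counts mix both roles. Of 40 tested, 22 were higher in mutants (55%, beside 34.7% of all genes) and 6 lower (15%, beside 34.2%), with a median of 0.23 beside 0.01. morc3a, related to a mammalian silencing factor, was at 63.7, 59.5 and 65.9 CPM in mutants, against 15.7, 15.4 and 15.6 CPM in wild-type siblings (2.02 ± 0.04). UHRF1, which recruits the maintenance DNA methyltransferase, averaged 109 and 57.2 CPM (0.93 ± 0.03), the lamin LMNB1 116 and 65.1 CPM (0.83 ± 0.03), and the remodeller HELLS 29.5 and 16.99 CPM (0.79 ± 0.04). The histone demethylase kdm4aa was lower, with 55.1 CPM in mutants and 74.2 CPM in wild-type siblings (-0.43 ± 0.03). Also among the 6 lower were kdm4ab (-0.22 ± 0.03) and kdm4c (-0.22 ± 0.04), while KDM4B was not called. Several genes of this list are also known to be expressed most in dividing cells, and each of the 7 markers of proliferating cells was called higher in mutants. Germ cell markers, considered because the arm carries the sex-linked region of wild zebrafish, summed to 29.4 CPM in mutants and 24.97 CPM in wild-type siblings. Of the 11, 5 were called higher (45.5%, beside 34.7% of all genes) and 1 lower (9.09%, beside 34.2%). What part either plays in the members' levels was not tested.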

How the data were processed

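Polyadenylated RNA of whole larvae was sequenced from 3 pdcd7/cx20 mutant and 3 wild-type sibling libraries. Per the file headers, the authors made the deposited raw counts with featureCounts 1.6.3 (paired ends, reverse-stranded, exons summed per gene); multi-mapping reads were not counted. The annotation was Ensembl GRCz11 release 115, per the same headers, and the submitters' processing notes also name STAR 2.7.11 and Trimmomatic 0.38. Symbols came from name tables and matched 29201 of 32520 genes, 1402 of them on the arm.

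CPM are counts per unit of TMM-scaled library size. Counts were tested with edgeR 4.0.16 (filterByExpr, TMM, robust quasi-likelihood F-test, two-sided, Benjamini-Hochberg over 24248 genes), first tested on simulated data; SE is the log2 fold change divided by the root of F. DESeq2 1.42.0, limma 3.58.1, other scalings, filters, thresholds and arm starts, and leaving out each library were alternatives. Named genes were the largest called changes among members reaching 1 CPM, the smallest p-values, the highest levels per kb, the leading genes of each name group and the boundary genes; further family and neighbouring members were chosen after their values were seen. Members and lists were chosen with earlier results of these data known. Same-numbered libraries did not deviate together (correlations 0.0207, -0.0413 and -0.0023), so no pairing was used.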

Additional observations from a re-analysis of the deposited data

How the results depend on the processing

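The main counts on the long arm were 194 higher and 92 lower, and its median log2 fold change was 0.14. Requiring 1 CPM in 3 libraries left 108 higher, with a median of 0.0598, and 17 zinc fingers higher; the fewer genes tested are part of that setting. An adjusted p of 0.01 left 123 long arm genes and 21 zinc fingers higher, and a 1.5-fold change left 111 higher and 47 lower, 24 zinc fingers higher and 0 lower, 77 and 64 on the short arm, and 2588 and 2700 over all genes. DESeq2 called 24 zinc fingers higher, and 138 long arm genes higher and 79 lower. The median was 0.18 with upper quartile scaling, 0.21 with library size only and 0.17 with no filter, and the log2 ratio of summed levels was 0.189 and 0.22 with those 2 scalings. These scalings shifted all genes alike: the long arm median stayed 0.128 above that of all genes. The higher share of calls was 67.8% on the arm and 50.3% over all genes, while upper quartile scaling gave 73.0% and 55.6%, and scaling by library size alone 76.5% and 59.4%. The cause of the other differences was not tested.

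Leaving out 1 library gave 165 to 175 long arm genes higher and 83 to 95 lower, 28 to 38 zinc fingers higher and 1 lower, 193 to 210 short arm genes higher and 193 to 207 lower, and 7934 to 8006 of all genes higher and 7890 to 8050 lower. The median then lay between 0.13 and 0.16 and the log2 ratio of sums between 0.141 and 0.157. The replicate block, which the labels' numbers do not justify, gave 188 higher and 88 lower. Of the named genes' values under alternatives, 29 lost and 2 gained a call and 830 did neither. With library size only, the uncalled RAB21 turned in sign, at 0.0011. Of the members, 716 stayed at or under 3 counts in every library, 467 of them RNA genes, which the kit and the counting also limit.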
